A study of Mus musculus with 12 samples.

Results

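Hepatic stellate cell and myofibroblast markers were followed in bulk liver RNA of mice fed a fast-food diet (FFD). The 10 markers were found by gene name among the 54532 genes of each count file, and each name matched a single gene. They formed a quiescent class of 6 genes (Lrat, Des, Reln, Rgs5, Cygb and Colec11) and a contractile class of 4 genes (Acta2, Tagln, Myh11 and Cnn1). All mice were male PPARγ flox/flox littermates given an adeno-associated virus of serotype AAV8 at 8 weeks of age, and all were then placed on FFD for 2 or 5 months. The diet held 21% fat and 34% sucrose by weight and 0.2% cholesterol. The drinking water held 18.9 g/L glucose and 23.1 g/L fructose. The groups labelled PPARγ-KO received AAV8-TBG-Cre and the wild-type (WT) controls received AAV8-TBG-eGFP, so controls also carried the floxed alleles, the virus and the diet. The TBG promoter drives expression in hepatocytes, so stellate cells were not the cells targeted for recombination. Of the 12 libraries, 3 came from each combination of genotype and time. The comparisons asked how the markers of both classes stood in the PPARγ-KO livers against wild-type at each time and in each genotype between the times.

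Stellate cells lie between hepatocytes and the sinusoidal endothelium and store vitamin A as retinyl esters. During liver injury they can lose this store, lay down collagen and acquire the contractile proteins of smooth muscle, a state called the myofibroblast. The quiescent markers name the resting or pericyte-like cell, whereas Acta2, which encodes α-smooth muscle actin, is the usual transcript of the activated cell. Contractile genes are also expressed by the smooth muscle of hepatic vessels, and many are targets of serum response factor (SRF) and its cofactors.

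The targeted gene did not follow its label at the level of whole-gene counts. Pparg was at 38.8, 41.4 and 37.7 normalized CPM (counts scaled by library size) in wild-type libraries and at 50.5, 66.5 and 52.1 in PPARγ-KO-labelled libraries at 2 months. At 5 months it was at 36.9, 41.4 and 37.1 in wild-type and at 86.6, 93 and 75.1 in those labelled PPARγ-KO. The log2 fold change of Pparg was 0.52 ± 0.107 (edgeR SE, adjusted p = 0.0309, n = 3 per group) at 2 months and 1.15 ± 0.0847 (edgeR adjusted p = 2.57e-06, n = 3 per group) at 5 months. Counts per gene do not show which exons were read, so groups are named by their labels and every direction below rests on the labels. Libraries held 16367775 to 27452284 counts, and replicates of a group differed by a chi-square of 2.44 to 31.7 per gene, where sampling noise alone gives about 1. Wild-type replicate 1 at 2 months stood apart, at 31.7 and 27.6 from its 2 partners. Several marker results are given with and without it, or as ranges over single libraries left out. The wider gene lists are given only with it. The labels do not say which animal gave which library, so p-values measure the spread between these libraries, which may be technical.

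The levels of the quiescent markers were read first. In bulk liver RNA these levels do not show which cells made the transcripts. Lrat, lecithin retinol acyltransferase, which makes the stored retinyl esters, lay between 32.1 and 56.8 normalized CPM in all 12 libraries. Per kilobase of gene length, Colec11, which encodes the complement lectin collectin-11, was highest in wild-type livers at 2 months, at 25.4 ± 1.12 CPM per kb (SD, n = 3). Rgs5, a regulator of G protein signalling typical of pericytes, followed at 11.5 ± 1.97 CPM per kb (SD, n = 3), Lrat at 8.58 ± 1.48 and Cygb, the oxygen-binding cytoglobin, at 6.88 ± 0.929. Reln, the secreted glycoprotein reelin, was at 5.52 ± 0.316 CPM per kb and Des, the intermediate filament desmin, at 1.46 ± 0.0447 (SD, n = 3 each). In the order of levels, Rgs5 overlapped Lrat and Lrat overlapped Cygb, whereas Colec11 stood clear above Rgs5 and Reln clear below Cygb.

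Contractile transcripts were scarce. In the same wild-type livers at 2 months Acta2 was at 2.39 ± 1.56 CPM per kb (SD, n = 3), overlapping Des. Myh11, smooth muscle myosin heavy chain, was at 0.445 ± 0.0887 CPM per kb and overlapped Tagln, the actin-binding protein transgelin, at 0.358 ± 0.0908 (SD, n = 3 each). Cnn1, the actin-binding protein calponin 1, was at 0.0248 ± 0.0283 CPM per kb (SD, n = 3). In reads, Acta2 had 20 to 140 counts per library, Myh11 22 to 102, Tagln 5 to 18 and Cnn1 0 to 10. Cnn1 was therefore too low for a test in any comparison, and Tagln was too low at 5 months. At 5 months in wild-type livers Acta2 (3.72 ± 0.496 CPM per kb, SD, n = 3) lay above Reln (3.08 ± 0.234), although the ranges of the pair overlapped.

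**Figure D1:**
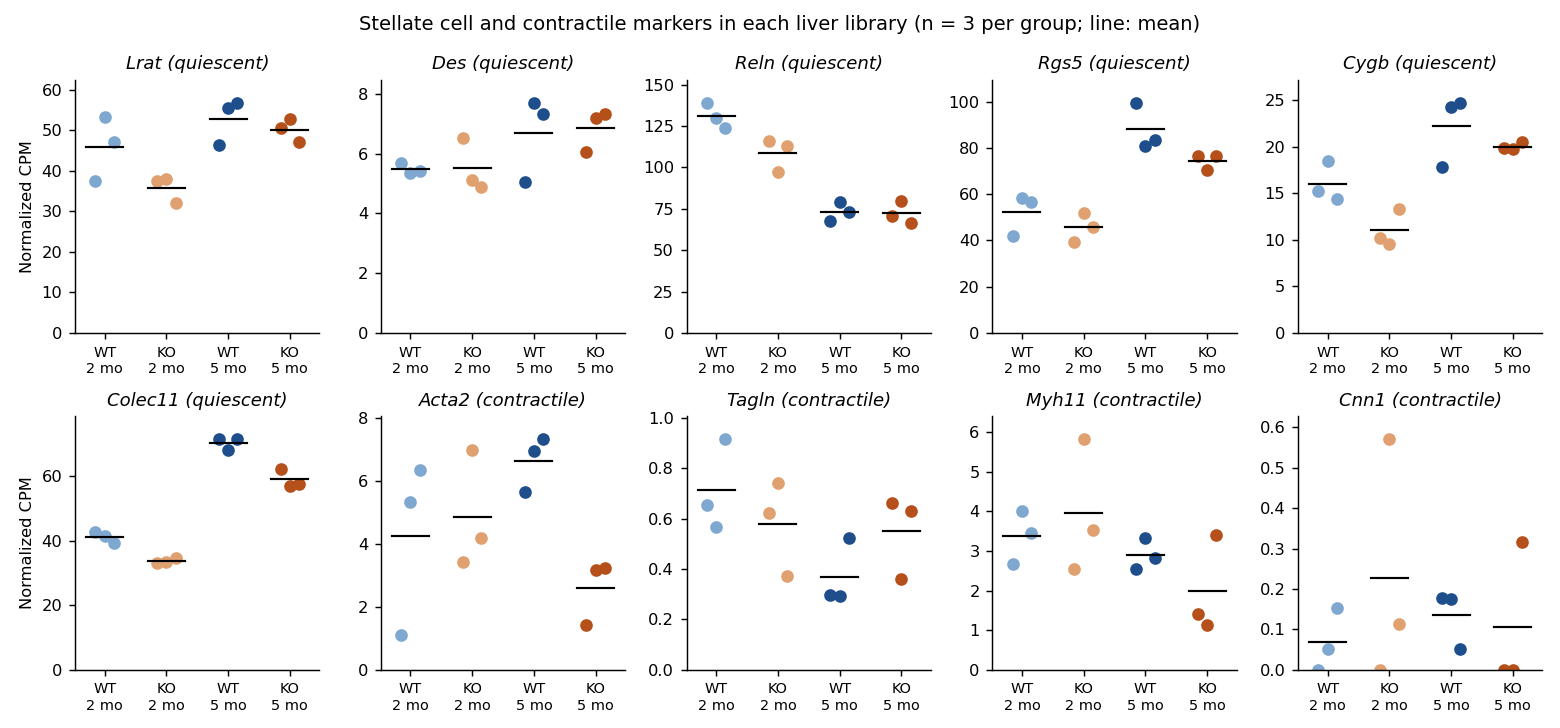
Normalized CPM (y axis, from 0, its scale set for each gene) of the 10 markers in each library (points), by group labelled wild-type (WT) or PPARγ-KO (KO) at 2 and 5 months of FFD (x axis), with the group mean as a line (n = 3). Acta2 in PPARγ-KO-labelled libraries at 5 months, at 1.42 to 3.22, lies below all 3 wild-type libraries of that time, and Reln at 5 months, at 66.6 to 79.7, lies below every 2-month library.

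The genes lie apart in the genome. In mm10, as the files give it, Acta2 (ENSMUSG00000035783) spans chr19:34241090-34255336 and Lrat (ENSMUSG00000028003) spans chr3:82892579-82903973, both on the minus strand. Colec11 (ENSMUSG00000036655) spans chr12:28594173-28623377, Cygb (ENSMUSG00000020810) chr11:116645595-116654313, Reln (ENSMUSG00000042453) chr5:21884454-22344702 and Myh11 (ENSMUSG00000018830) chr16:14194535-14291372, all on the minus strand. Des (ENSMUSG00000026208) spans chr1:75360329-75368579, Rgs5 (ENSMUSG00000026678) chr1:169655501-169695813 and Cnn1 (ENSMUSG00000001349) chr9:22099216-22109630, all on the plus strand. Tagln (ENSMUSG00000032085) spans chr9:45929619-45936058 on the minus strand and shares 1241 exon bases, 62.4% of its exon length, with Gm48529 on the opposite strand (5 to 31 counts per library), and 108 exon bases, 5.4%, with Pcsk7, also on the opposite strand (479 to 868 counts). Because the use of strand in counting is not given in the sources used here, reads of Tagln and of these genes cannot be told apart in the shared bases and the Tagln counts are uncertain.

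The 250 bases upstream of the RefSeq start site (assembly GRCm38.p6) were read for the CArG box, the element that SRF binds in contractile genes. The box is CC, then 6 letters that are all A or T, then GG, and a CArG-like box allowed 1 of the 6 to be G or C. Both strands were covered, since a box keeps its class when read in reverse. Of the 10 markers, 7 had such a window, and among these Acta2 and Lrat held a box. Acta2 is the contractile marker with the most counts and Lrat the defining enzyme of the vitamin A store. They are shown 5′ to 3′ on the strand of the gene with the CArG-like boxes in capitals. Acta2 is the window chr19:34255374-34255623 on the minus strand, with boxes starting at -84 and -34 from the start site. Lrat is chr3:82903975-82904224 on the minus strand, with a box starting at -223.
Acta2: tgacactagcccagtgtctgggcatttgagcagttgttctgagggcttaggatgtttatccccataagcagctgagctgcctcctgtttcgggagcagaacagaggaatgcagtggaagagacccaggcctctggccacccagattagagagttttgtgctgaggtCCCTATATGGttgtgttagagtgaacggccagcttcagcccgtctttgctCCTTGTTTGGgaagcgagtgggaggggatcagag
Lrat: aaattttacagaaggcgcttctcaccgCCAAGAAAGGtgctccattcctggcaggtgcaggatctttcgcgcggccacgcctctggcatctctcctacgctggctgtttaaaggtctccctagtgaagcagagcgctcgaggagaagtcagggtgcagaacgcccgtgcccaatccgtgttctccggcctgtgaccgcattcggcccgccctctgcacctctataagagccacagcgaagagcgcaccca
Among all 32851 windows of this length, 7.24% held a CArG-like box, 1.47% a full CArG box and 0.67% at least 2 boxes of either kind. The windows of Des, Reln, Rgs5, Colec11 and Cnn1 held none. A match is a stretch of letters and not a measured binding site.

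Acta2 fell in the livers labelled PPARγ-KO at 5 months of FFD, to 0.391 of the wild-type level. It was at 5.63, 6.94 and 7.31 normalized CPM in the wild-type libraries and at 1.42, 3.18 and 3.22 in those labelled PPARγ-KO. Every PPARγ-KO-labelled library lay below every wild-type library. The log2 fold change was -1.36 ± 0.266 (SE, 95% interval -1.94 to -0.77, edgeR adjusted p = 0.00422, n = 3 per group). The counts behind it were 95 to 140 per wild-type library and 30 to 62 per PPARγ-KO-labelled library. The call did not hold when all 12 libraries shared 1 edgeR fit (adjusted p = 0.142), and it held in that fit without wild-type replicate 1 at 2 months (adjusted p = 0.00782), which had 20 Acta2 counts.

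Myh11 did not pass the test at 5 months, and its spread was wide. It was at 2.55, 3.33 and 2.82 normalized CPM in wild-type and at 1.42, 1.13 and 3.41 in PPARγ-KO-labelled libraries, where replicate 3 lay above all wild-type libraries and the other two lay below them. The log2 fold change of Myh11 was -0.57 ± 0.36 (SE, 95% interval -1.36 to 0.22, edgeR adjusted p = 0.322, n = 3 per group), and -1.17 without that replicate 3 (edgeR adjusted p = 0.022). Tagln had 5, 5 and 10 counts in wild-type and 14, 7 and 10 in PPARγ-KO-labelled libraries, and Cnn1 had 3, 3 and 1 against 0, 0 and 5. Relative to Lrat, both per kilobase, Acta2 stood at 36.5%, 37.6% and 38.7% in wild-type and at 8.43%, 18.1% and 20.6% in PPARγ-KO-labelled libraries.

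Among the quiescent markers at 5 months, Colec11 fell and the other 5 did not pass the test. Colec11 was at 71.4, 68.2 and 71.4 normalized CPM in wild-type and at 62.3, 57.1 and 57.7 in PPARγ-KO-labelled libraries, with no overlap. Its log2 fold change was -0.24 ± 0.0633 (edgeR SE, adjusted p = 0.0182, n = 3 per group), a fold of 0.846. This small difference lost the call without wild-type replicate 3 (edgeR adjusted p = 0.0842), without PPARγ-KO replicate 2 (0.0634) or without PPARγ-KO replicate 3 (0.0699). Rgs5 was at 99.5, 81 and 83.6 normalized CPM in wild-type and at 76.6, 70.3 and 76.6 in PPARγ-KO-labelled libraries, which also did not overlap, with a log2 fold change of -0.23 ± 0.0798 (edgeR SE, adjusted p = 0.0642, n = 3 per group). Lrat differed by -0.07 on the log2 scale (95% interval -0.25 to 0.12), Reln by -0.01 (-0.18 to 0.17), Des by 0.04 (-0.34 to 0.42) and Cygb by -0.14 (-0.4 to 0.11), each interval spanning 0. Cygb passed the test without wild-type replicate 1 (-0.28, edgeR adjusted p = 0.0289). In all, 2 of the 8 markers tested at 5 months passed, both lower, beside 9.51% of all 14138 genes tested that were called lower. The libraries did not overlap for 3 markers, all lower, beside 19% of all genes.

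At 2 months no marker passed the test, and the quiescent markers lay mostly lower in PPARγ-KO-labelled libraries. Of 9 markers tested by edgeR 0 were called, beside 3.56% of all 14573 genes tested. Unadjusted, 4 had a p under 0.05 (Lrat, Reln, Cygb and Colec11), beside 18.9% of all genes, and DESeq2 called 1, Cygb (adjusted p = 0.0458), beside 6.78% of the genes it tested. With the replicate number as a block, which treats same-numbered 2-month libraries as pairs, edgeR again called 0 of the markers.

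Cygb was at 15.2, 18.5 and 14.4 normalized CPM in wild-type and at 10.2, 9.53 and 13.3 in PPARγ-KO-labelled libraries. All 3 of the latter lay below the wild-type libraries, and the log2 fold change was -0.54 ± 0.151 (edgeR SE, adjusted p = 0.0833, n = 3 per group). Colec11 was at 42.8, 41.6 and 39.2 in wild-type and at 33, 33.4 and 34.5 in PPARγ-KO-labelled libraries, with a log2 fold change of -0.29 ± 0.0735 (edgeR SE, adjusted p = 0.0618, n = 3 per group). Reln was at 139, 130 and 124 against 116, 97.2 and 113, with a log2 fold change of -0.27 ± 0.0849 (edgeR SE, adjusted p = 0.122, n = 3 per group). These 3 markers were those whose groups did not overlap, all lower, beside 12% of all genes. Lrat was at 37.6, 53.3 and 47 in wild-type and at 37.4, 38 and 32.1 in PPARγ-KO-labelled libraries. The low wild-type value of Lrat was replicate 1, and the log2 fold change of -0.36 ± 0.127 (edgeR SE, adjusted p = 0.167, n = 3 per group) became -0.48 without that library (edgeR adjusted p = 0.00906). Rgs5 differed by -0.2 on the log2 scale (95% interval -0.53 to 0.13) and Des by 0 (-0.38 to 0.39).

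The contractile markers at 2 months varied more within groups than between them. Acta2 was at 1.09, 5.31 and 6.35 normalized CPM in wild-type and at 3.42, 6.96 and 4.17 in PPARγ-KO-labelled libraries, the lowest value being wild-type replicate 1. Its log2 fold change was 0.18 ± 0.619 (SE, 95% interval -1.36 to 1.71, edgeR adjusted p = 0.918, n = 3 per group) and turned to -0.27 without that library (edgeR adjusted p = 0.615) and to -0.16 without PPARγ-KO replicate 2. The lower end of the interval, as rounded, reaches the value found at 5 months, so a change of that size was not excluded at 2 months. The same library was lowest of its group in the sum of the 19 fibroblast activation and matrix genes described below, at 622 CPM against 935 and 946. Myh11 was at 2.68, 4.02 and 3.45 normalized CPM in wild-type against 2.54, 5.82 and 3.54, and Tagln at 0.655, 0.567 and 0.914 against 0.622, 0.742 and 0.372, both with overlapping groups. The log2 fold change of Myh11 was 0.22 ± 0.303 (edgeR SE, adjusted p = 0.759, n = 3 per group) and -0.15 without PPARγ-KO replicate 2.

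Whether the difference between genotypes itself changed with time was tested in 1 fit of all 12 libraries. No marker passed: edgeR called 0 of 9, beside 1.57% of all 15127 genes tested. None had an unadjusted edgeR p under 0.05, beside 2250 of the 15127 genes, a share at which few of 9 markers would pass. DESeq2 called 0 markers, and its count over all genes is given in the section on processing. For Acta2 the log2 difference at 5 months minus that at 2 months was -1.54 ± 0.756 (SE, 95% interval -3.23 to 0.16, edgeR adjusted p = 0.387, n = 3 per group). With 1 library left out in turn it ranged from -1.94 to -1.08 (edgeR adjusted p = 0.217 to 0.555). The fall of Acta2 at 5 months is therefore not shown to differ from 2 months. For Lrat this difference of differences was 0.28 (95% interval -0.07 to 0.63), for Cygb 0.38 (-0.05 to 0.81) and for Reln 0.25 (-0.01 to 0.51). With 1 library left out in turn that of Lrat ranged from 0.16 to 0.41 (edgeR adjusted p = 0.0984 to 0.715). In each of these fits edgeR called 0 markers.

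**Figure D2:**
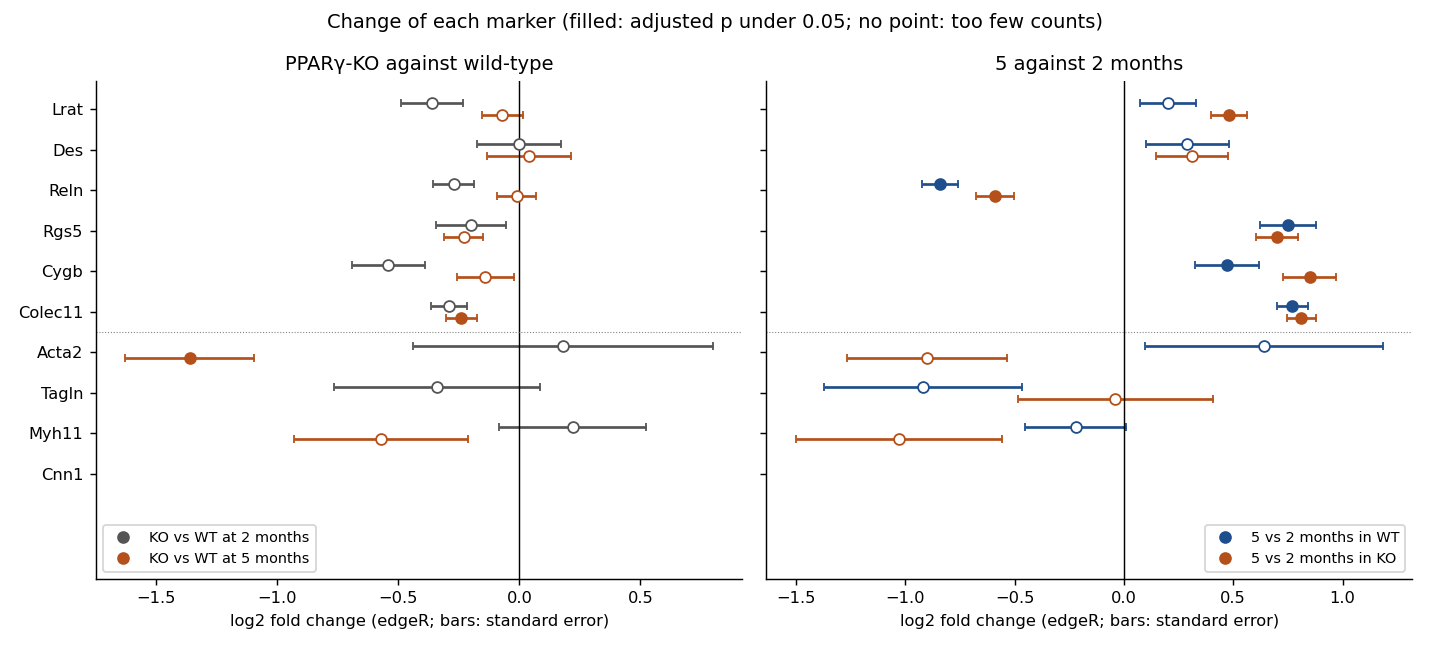
Log2 fold change (x axis) with its standard error (bars) of each marker (y axis, quiescent above the dotted line) in 4 edgeR comparisons of 3 against 3 libraries, groups as labelled. Filled points had an adjusted p under 0.05, and a missing point is a marker with too few counts. On the left Acta2 at 5 months lies farthest from 0, at -1.36, and on the right Rgs5, Cygb and Colec11 lie above 0 and Reln below 0 in both genotypes.

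Between 2 and 5 months some quiescent markers were called in each genotype, and not all in 1 direction. Des passed in neither genotype, and Lrat passed in PPARγ-KO-labelled libraries alone. Among all genes, 23.8% were called higher and 22.7% lower in wild-type. In PPARγ-KO-labelled libraries 22.7% were called higher and 22.2% lower. The comparisons over time use the same libraries as those between genotypes. Whether libraries of the 2 times were made together is not stated, so age, length of diet and library preparation cannot be told apart here. In bulk liver, fewer cells of a type and less RNA per cell cannot be told apart either. Macrophage markers moved over the same interval, from sums of 489 to 646 to sums of 1390 to 1570 CPM in wild-type (9 of 10 called higher) and with 4 called higher and 2 lower in PPARγ-KO-labelled libraries. Endothelial markers had 5 of 10 called lower and 1 higher in wild-type, and 7 lower and 1 higher in PPARγ-KO-labelled libraries. In wild-type T and NK cell markers had 4 of 5 called higher, neutrophil markers 2 of 3 and mesothelial markers 2 of 3. In PPARγ-KO-labelled libraries these were 0 of 2, 2 of 3 with 1 lower, and 2 of 4. All of these list counts stand beside the all-gene shares at the start of this paragraph. The part of these lists in the marker changes was not tested.

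In wild-type livers Rgs5, Cygb and Colec11 rose and Reln fell with time. Reln was at 139, 130 and 124 normalized CPM at 2 months and at 67.6, 78.8 and 73 at 5 months, 0.558 of the earlier level (log2 fold change -0.84 ± 0.0832, edgeR SE, adjusted p = 2.55e-05, n = 3 per group). Colec11 rose from 42.8, 41.6 and 39.2 to 71.4, 68.2 and 71.4 (log2 fold change 0.77 ± 0.07, edgeR SE, adjusted p = 1.48e-05, n = 3 per group). Rgs5 rose from 42, 58.3 and 56.5 to 99.5, 81 and 83.6 (log2 fold change 0.75 ± 0.128, edgeR SE, adjusted p = 0.0013, n = 3 per group). The groups did not overlap for these 3 genes, nor for Tagln, which makes 2 markers higher and 2 lower beside 28.7% and 28% of all genes. Cygb rose by 0.47 ± 0.146 on the log2 scale (edgeR SE, adjusted p = 0.0221, n = 3 per group), but its groups overlapped and the call was lost without wild-type replicate 3 at 2 months (edgeR adjusted p = 0.0808), replicate 2 at 5 months (0.0777) or replicate 3 at 5 months (0.0858), and under scaling by library size alone (0.39, edgeR adjusted p = 0.0821). Lrat differed by 0.2 (95% interval -0.09 to 0.49) and Des by 0.29 (-0.13 to 0.7), which became 0.46 without wild-type replicate 1 at 5 months (edgeR adjusted p = 0.0466). That makes 3 quiescent markers higher and 1 lower of 6, beside 23.8% of all 14491 genes tested called higher and 22.7% lower, a background in which nearly every second gene was called.

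In the livers labelled PPARγ-KO, Lrat, Rgs5, Cygb and Colec11 rose and Reln fell with time. Lrat was at 37.4, 38 and 32.1 normalized CPM at 2 months and at 50.5, 52.8 and 47 at 5 months, without overlap (log2 fold change 0.48 ± 0.0822, edgeR SE, adjusted p = 0.000691, n = 3 per group). Cygb rose from 10.2, 9.53 and 13.3 to 19.8, 19.7 and 20.5 (log2 fold change 0.85 ± 0.122, edgeR SE, adjusted p = 0.000222, n = 3 per group). Colec11 rose by 0.81 ± 0.0666 (edgeR adjusted p = 5.71e-06), Rgs5 rose by 0.7 ± 0.0939 (edgeR adjusted p = 0.000159) and Reln fell by 0.59 ± 0.0857 (edgeR adjusted p = 0.000255) on the log2 scale (SE, n = 3 per group). All 5 had groups that did not overlap, as had Acta2, which makes 4 markers higher and 2 lower beside 28.2% and 27.5% of all genes. Background calls in this comparison were 22.7% of 14478 genes higher and 22.2% lower. The change of Lrat with time in the 2 genotypes was not shown to differ (the difference of differences above).

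In the edgeR fits of 6 libraries no contractile marker passed over time in either genotype. In wild-type Acta2 differed by 0.64 ± 0.545 on the log2 scale (SE, 95% interval -0.7 to 1.97, edgeR adjusted p = 0.384, n = 3 per group), and by 0.19 without replicate 1 at 2 months, again the low library (edgeR adjusted p = 0.423), or 1.04 without replicate 3 at 2 months (0.204). In PPARγ-KO-labelled libraries Acta2 was at 3.42, 6.96 and 4.17 normalized CPM at 2 months and at 1.42, 3.18 and 3.22 at 5 months, each 5-month library below each 2-month library. Its log2 fold change was -0.9 ± 0.367 (edgeR SE, adjusted p = 0.0773, n = 3 per group), and it was called by DESeq2 (adjusted p = 0.0224) and by edgeR with no filter (adjusted p = 0.000403). Its value was -0.57 without replicate 2 at 2 months and -0.58 without replicate 1 at 5 months. Myh11 was at -1.03 ± 0.472 (edgeR SE, adjusted p = 0.118, n = 3 per group), which was called by DESeq2 (adjusted p = 0.0299), by edgeR in one fit of all 12 libraries (0.0407) and with no filter (0.000344), and which became -1.62 without replicate 3 at 5 months (edgeR adjusted p = 0.00897). The unadjusted edgeR p was under 0.05 for Acta2 here (0.0386), beside 52.5% of all genes, while DESeq2 called 39.9% of the genes it tested. In wild-type no contractile marker had an unadjusted edgeR p under 0.05, whereas 7783 of all 14491 genes did. Tagln in wild-type, from 12, 11 and 18 counts to 5, 5 and 10, had groups that did not overlap in normalized CPM and did not pass the test (edgeR adjusted p = 0.119).

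The classes were set against each other in each library as the mean log2(CPM per kb + 0.1) of the contractile markers minus that of the quiescent markers, with no test, since the score runs over chosen genes. The difference was -3.88 ± 0.43 in wild-type and -3.43 ± 0.53 in PPARγ-KO-labelled libraries at 2 months, and -4.07 ± 0.03 and -4.38 ± 0.44 at 5 months (SD, n = 3 each). The PPARγ-KO minus wild-type gap was 0.46 at 2 months and -0.3 at 5 months, beside a pooled SD of 0.41 between replicates. Leaving out 1 library gave 0.15 to 0.66 at 2 months, the lowest without PPARγ-KO replicate 2 and 0.23 without wild-type replicate 1, and -0.56 to -0.17 at 5 months, the lowest without PPARγ-KO replicate 3 and the highest without PPARγ-KO replicate 1. Without Cnn1 and Tagln, an alternative chosen after seeing the data, the gap at 5 months was -0.82. Within PPARγ-KO-labelled libraries the 5-month mean lay 0.95 below the 2-month mean on the log2 scale, and in wild-type 0.19 below. Leaving out 1 library gave -1.2 to -0.65 for the change in PPARγ-KO-labelled libraries. In wild-type it gave -0.41 to 0.02, so the sign there was not stable. The quiescent means moved from 2.87 ± 0.09 to 3.14 ± 0.11 in wild-type and from 2.6 ± 0.02 to 3.03 ± 0.02 in PPARγ-KO-labelled libraries (SD, n = 3 each). The SDs of the contractile means were 0.43 to 0.51 in 3 groups and 0.08 in wild-type at 5 months, and those of the quiescent means 0.02 to 0.11.

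**Figure D3:**
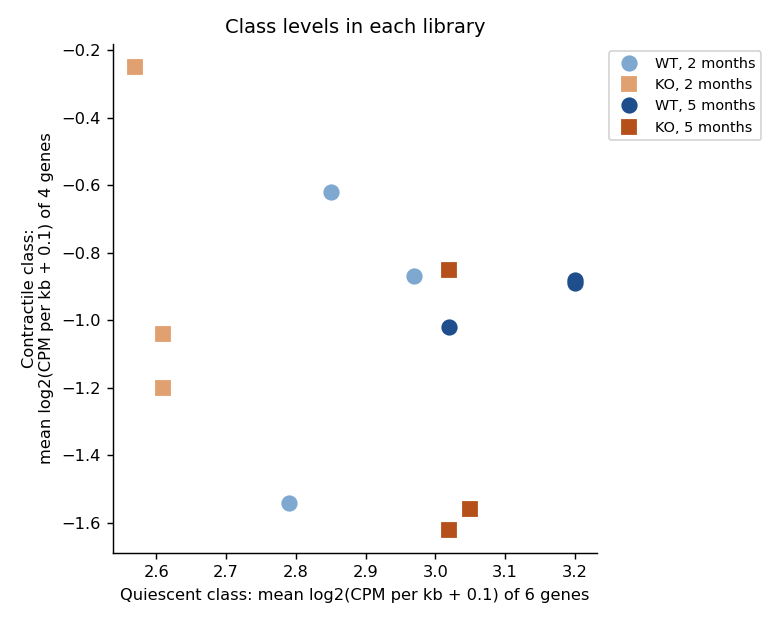
Mean log2(CPM per kb + 0.1) of the 6 quiescent (x axis) and 4 contractile markers (y axis) in each of the 12 libraries, groups as labelled. The libraries labelled PPARγ-KO at 2 months, at 2.57 to 2.61, lie left of all others, and the contractile levels of the groups overlap.

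Other genes of the stellate and contractile programs were read from lists by their counts alone. Beside these lists, 2602 of all 14138 genes tested were called at 5 months. Of these, 1344 (9.51% of all genes) were lower and the rest higher. At 2 months 3.56% were called in either direction. Of 13 other stellate cell genes tested at 5 months, Vipr1, the receptor of vasoactive intestinal peptide, rose (log2 fold change 0.24, edgeR adjusted p = 0.0314) and Steap4, a metalloreductase, fell (-0.45, edgeR adjusted p = 0.000362), and at 2 months edgeR called 0 of 13. Steap4 also had a genotype difference that changed with time (-0.47, edgeR adjusted p = 0.0325). Of the other contractile and mural cell genes 11 were tested at 5 months. Tpm2, β-tropomyosin of the thin filament, fell (-1.57, edgeR adjusted p = 4.86e-06) and Mylk, the kinase of myosin light chain, rose (0.37, edgeR adjusted p = 0.00158). At 2 months Tpm2 (-0.88, edgeR adjusted p = 0.0268) and Mcam, an adhesion molecule of mural and endothelial cells (-0.68, edgeR adjusted p = 0.0304), fell among 13 tested. Of SRF and its cofactors 3 were tested at each time, and Mrtfb, an SRF coactivator, rose at 5 months (0.42, edgeR adjusted p = 0.00224).

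Of the fibroblast activation and matrix list, 12 of 18 tested genes fell at 5 months and 0 rose, with a median log2 fold change of -0.74 beside a median of -0.0058 over all genes. Genes called lower included the collagen gene Col3a1 (-0.92, edgeR adjusted p = 0.000322), Postn, periostin (-0.74, 0.000593) and Tnc, tenascin C (-1.34, 0.000626). At 2 months 3 of 18 were called lower, Pdgfra, the platelet-derived growth factor receptor α (-0.63, edgeR adjusted p = 0.0253), Tgfbr2, a transforming growth factor-β receptor (-0.61, 0.0165), and Dcn, decorin (-0.34, 0.0316), with a list median of -0.71. These 2-month values include wild-type replicate 1, the lowest wild-type library in the sum of this list. The study named several genes of this list, and Acta2 itself, on these same samples, so the list is not independent evidence of direction. The median of the quiescent markers was -0.28 at 2 months and -0.11 at 5 months. Over time the other stellate cell list had 5 genes called higher and 2 lower of 13 in each genotype. The matrix list had 6 higher and 1 lower of 18 in wild-type and 7 higher and 1 lower in PPARγ-KO-labelled libraries. Beside these counts over time, 23.8% of all genes were called higher and 22.7% lower in wild-type. In PPARγ-KO-labelled libraries these shares were 22.7% and 22.2%.

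**Figure D4:**
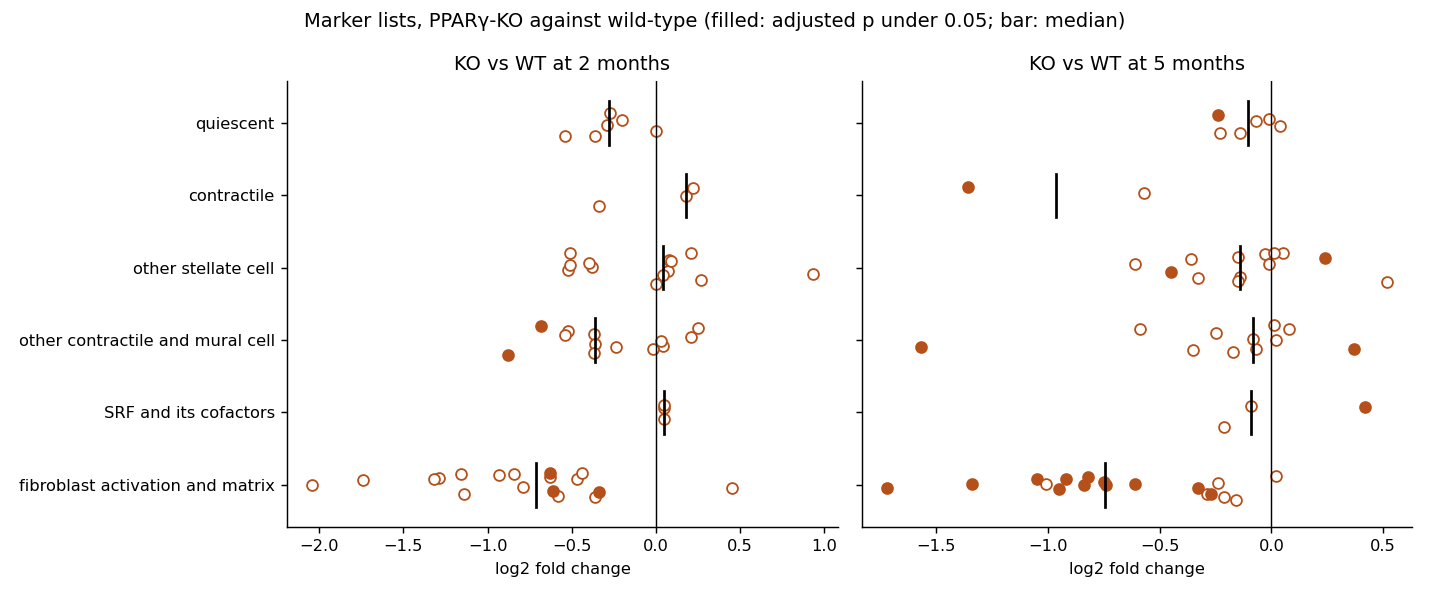
Log2 fold change of PPARγ-KO against wild-type, as labelled (x axis), at 2 months (left) and 5 months (right) for the markers and the wider lists (y axis), 1 point per tested gene with the list median as a bar. Filled points had an edgeR adjusted p under 0.05. At 5 months the matrix list has its median at -0.74 and the quiescent markers at -0.11.

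Markers of other cells moved in the same comparison, and their part in these results was not tested. The counts below stand beside 2602 of all 14138 genes called at 5 months, 1344 of them (9.51% of all genes) lower and the rest higher. At 2 months 3.56% were called in either direction. The 10 macrophage markers summed to 1390 to 1570 CPM in wild-type and to 694 to 870 in PPARγ-KO-labelled libraries at 5 months, with 9 of 10 called lower, whereas at 2 months the sums were 489 to 646 and 539 to 621 with 1 called higher. The 10 hepatocyte markers summed to 69000 to 76200 CPM in wild-type and to 86300 to 98600 in PPARγ-KO-labelled libraries at 5 months (1 called higher, 1 lower), and at 2 months to 65700 to 76200 and 82900 to 95400 (1 called higher). Alb was the largest part of these sums, with means of 37000 in wild-type and 57100 in PPARγ-KO-labelled libraries at 5 months. Hpx went the other way there, with means of 9230 and 5330. The median log2 fold change of the list was 0.1 at 5 months (7 genes above 0, 3 below). At 2 months it was 0.19 (9 above 0, 1 below). Endothelial markers had 4 of 10 called lower at 5 months (390 to 417 against 342 to 363 CPM) and 0 by edgeR at 2 months. Portal fibroblast markers had 1 of 7 tested called lower at 2 months and 0 of 7 at 5 months, with sums of 28.4 to 45 CPM in wild-type and 29 to 34.9 in PPARγ-KO-labelled libraries at 5 months. Mesothelial markers were called in neither comparison and summed to 3.57 to 14.5 CPM over all libraries. Skeletal and cardiac muscle markers summed to at most 1.66 CPM and adipocyte markers to at most 0.109 CPM in any library, and none of either list was tested between genotypes. Of the remaining lists at 5 months, cholangiocyte had 1 of 6 called higher, neutrophil 2 of 3 lower, T and NK cell 0 of 5, B cell 1 higher and 1 lower of 3 and erythroid 1 of 3 higher. At 2 months these had 0 of 7, 0 of 2, 0 tested, 0 of 4 and 1 of 3 higher.

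The genes whose normalized level followed Acta2 or Lrat most closely over the 12 libraries, among 13173 genes, were listed as a description. For Acta2 they were Nudt5 (r = 0.907), Clic4 (0.9), Ube2c (0.897), Gja1 (0.867) and Nedd9 (0.863). For Lrat they were Tpm1 (r = 0.967), Haus8 (0.957), Gm11843 (0.955), Ccdc120 (0.953) and Emp1 (0.951). Among the markers themselves Rgs5 and Colec11 had r = 0.92, and Reln and Rgs5 r = -0.86. With the group means taken out these became -0.06 and -0.78. Lrat and Acta2 had r = 0.26, and 0.65 with the group means taken out. For the genes listed with Acta2, r with the group means taken out was 0.853 (Nudt5), 0.916 (Clic4), 0.918 (Ube2c), 0.921 (Gja1) and 0.893 (Nedd9). For those listed with Lrat it was 0.85 (Emp1) to 0.942 (Haus8). The values over all 12 libraries can follow the group means, and those with means taken out follow the spread within groups. Wild-type replicate 1 at 2 months was the lowest library for Acta2, and its part in these values was not tested.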

How the data were processed

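Total RNA of mouse liver was sequenced and aligned to mm10 by a company. The paper's methods name STAR and the submitters' processing notes name HISAT2. The counter, annotation and strand setting are not given in the sources used here. The authors deposited whole-number read counts per gene, not normalized, for 54532 genes in each of 12 libraries (3 per group, grouped by the labels), of which 28715 genes had a count.

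From these counts, edgeR 4.0.16 (R 4.3.3, limma 3.58.1) was run on all genes: filterByExpr, TMM (factors 0.949 to 1.088), robust quasi-likelihood fits, two-sided F-tests and Benjamini-Hochberg adjustment over all genes tested, threshold 0.05. Each of 4 comparisons had its own fit of 6 libraries, and the difference of effects a fit of 12. The SE is the log2 fold change divided by the root of F, and intervals are 95% from the t distribution. Shown CPM are scaled by TMM over all 12 libraries. Levels between genes are per kilobase. Intervals cover the spread between libraries only.

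All 10 markers are named. From the pathway lists, at most 4 genes per list and comparison with the smallest adjusted p in the genotype comparisons or their difference are named, and cell type lists are given by sums and counts. A gene that this rule names is not reported here. Genes most like Acta2 and Lrat were the 5 with the highest Pearson r at a mean of at least 1 CPM. The markers and lists were chosen with earlier results of these data known. All 143 genes of the 18 lists matched 1 row each.

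Whether replicate numbers pair the libraries was checked on 5000 genes. With group means removed, same-numbered libraries of the genotypes correlated at 0.221, 0.325 and 0.139 at 2 months, and at -0.075, -0.0618 and -0.185 at 5 months. Differently numbered libraries correlated at -0.274 to 0.115 at 2 months. The numbers were treated as pairs at 2 months in the block alternative. With 3 libraries per group the values depend on each other, so the check cannot decide whether libraries are paired. This treatment comes from the check and not from the labels.

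In simulated counts where 200 genes carried a log2 change of 1.5, edgeR recovered 172 at 2 months (of 14573 genes) and 179 at 5 months (of 14138), with 8.51% and 10.1% of calls false. For the difference of effects it recovered 145 (of 15127 genes), with 8.23% of calls false. Smaller changes, as most markers had, were not simulated. The alternatives were DESeq2 1.42.0, its size factors, library size alone, other count filters, the replicate block, all libraries in one fit, unadjusted p with 1.3-fold, and each library left out.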

Additional observations from a re-analysis of the deposited data

How the results depend on the processing

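Of 621 alternative values for single markers, 565 kept their direction and side of the threshold. At 2 months edgeR called 0 markers, DESeq2 called 1, library size alone 2, no filter 4, all 12 libraries in one fit 2, unadjusted p with 1.3-fold 1, and leaving out 1 library 0 to 1, the 1 being Lrat without wild-type replicate 1. Over all genes the 519 calls at 2 months became 988 with DESeq2, 1562 with no filter, 1153 in one fit, 1608 with unadjusted p and 1.3-fold, and 117 to 1577 without 1 library, the 1577 without wild-type replicate 1, and each of the 6 libraries left out moved the count by over 1.5 times. At 5 months the 2 markers called became 1 in one fit of all 12 libraries and 1 with unadjusted p and 1.3-fold, and 1 to 3 without 1 library. All-gene calls there, 2602, were 1593 to 3078 without 1 library, with 1593 and 1601 without wild-type replicates 3 and 2. For the difference of effects the 238 calls became 594 with DESeq2, 793 with no filter, 1563 with unadjusted p and 1.3-fold, and 83 to 567 without 1 library, the lowest without wild-type replicate 3 at 5 months and the highest without wild-type replicate 1 at 2 months. The class contrast at 5 months, -0.3, was -0.82 without Cnn1 and Tagln, an alternative chosen after seeing the data, as was the fit of 12 libraries without wild-type replicate 1 at 2 months. The cause of these shifts was not tested.

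Des near 0 turned sign under library size alone (-0.07 at 2 months, -0.03 at 5 months). Library size alone moved the median of all genes by under 0.1. Leaving out 1 library also turned Des (-0.13 to 0.09 at 2 months, -0.13 to 0.15 at 5 months, -0.14 to 0.17 for the difference), Acta2 (-0.27 to 0.58) and Myh11 (-0.15 to 0.45) at 2 months, Reln at 5 months (-0.08 to 0.05), Tagln over time in PPARγ-KO (-0.31 to 0.2) and Rgs5 for the difference (-0.14 to 0.09).

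With the replicate number as a block at 2 months, Des was -0.01 and all-gene calls rose to 817, and the block called 0 markers. At 5 months and over time the numbers were not taken as pairs. Same-numbered libraries correlated at 0.237, 0.184 and 0.0186 in wild-type over time, all above 0 as at 2 months. In PPARγ-KO over time they correlated at -0.0356, 0.219 and -0.0181. At 5 months and over time the block added Lrat in wild-type over time (0.21, edgeR adjusted p = 0.0465) and Acta2 in PPARγ-KO over time (-0.91, edgeR adjusted p = 0.0164) and changed no other marker call. Tagln and Cnn1, with 0 to 18 counts per library, are limited by depth.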
